A study of Mus musculus with 36 samples.

Results

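The genes described here were the protein-coding mouse genes on chromosomes 7, 13 and 17 whose symbol is Zfp followed by digits, with or without a suffix, and each was given the position of its 5′ end. The GENCODE M1 annotation of mm9 held 170 such genes with 168 symbols, out of 22350 protein-coding genes. Chromosome 7 held 87 of them, chromosome 13 held 38 and chromosome 17 held 45. The rule used symbols and chromosomes and no timing value, but it was set with earlier results of these data known. Zfp708 and Zfp738 each stood for 2 annotated genes that lay side by side and had the same state, M, in each map.

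The replication timing (RT) data came from Repli-seq: dividing cells took up BrdU, were sorted into an early and a late S phase fraction, and newly made DNA from either fraction was sequenced. The maps used were those of CH12 cells, a mouse B lymphoma line, carrying an shRNA against LacZ (shLacZ, the infection control) without any Rif1 deletion, and of primary activated splenic B cells from WT mice. Each rested on 4 libraries, 2 replicates of each fraction. The labels give stimulation through IL4, CD40 and TGF beta for the CH12 cells and repeat that text for the primary B cells. Whether both were stimulated alike is thus uncertain. CH12 is a single line, and the labels tie the primary cells to no age, sex or strain. The study states in general that sequencing replicates came from separately thawed vials of CH12 cells. Its Repli-seq method describes 2 samples sorted per fraction as technical replicates, so the kind of replicate is unclear. The other 5 groups of the series (shMcm6, Rif1KO and Rif1KO shMcm6 CH12 cells, and heterozygous and homozygous Rif1 knockout primary B cells) were not analysed here. The third map bears the name of mouse embryonic fibroblasts (MEFs), is tied to no sample and stands beside the B cell maps as a description.

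Each map consists of domains, built from 20 kb bins, in an early (E), a middle (M) or a late (L) state. A state is written below in the order CH12, primary B, MEF, so that MEM means M, E and M. The study merged its replicates ahead of state calling, so each condition has 1 map, no replicate error exists, no test between the cells was made and the read depth is unknown. Wilson 95% intervals cover counting over genes only. Genes in 1 domain share 1 call and are not independent. The maps hold no expression, so the labelled cell types could not be checked against marker genes.

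C2H2 zinc finger proteins bind DNA through repeated fingers, each held together by 2 cysteines and 2 histidines around a zinc ion. Many also carry a KRAB domain, which recruits TRIM28 (also called KAP1) and through it the histone methyltransferase SETDB1, so that H3K9me3 is laid down at the bound sites, many of them in transposable elements. The KRAB genes arose by tandem duplication and lie in clusters, and their own gene bodies are known in many cells for carrying H3K9me3. B cells use at least 1 gene of the set for a B cell function: Zfp318 controls the joint expression of IgM and IgD.

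The unit is shown by its coding sequence, with the codons of the 2 cysteines and 2 histidines in capitals. Both stretches hold the first finger found in the protein, 63 bases or 21 codons, read from NCBIM37 (mm9) on the + strand. The first lies at chr7:30807743-30807805 in Zfp568, a KRAB protein known for silencing a placental transcript of Igf2, which was E in all 3 maps. The second lies at chr7:48904029-48904091 in Zfp788, which was L in all 3.
Zfp568 finger: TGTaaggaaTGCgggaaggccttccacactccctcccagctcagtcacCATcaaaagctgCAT
Zfp788 finger: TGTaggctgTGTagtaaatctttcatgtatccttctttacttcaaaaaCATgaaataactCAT
Both encode the same frame of cysteines and histidines, and the bases between differ. Zfp568 had 11 fingers and Zfp788 had 23.

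In CH12 cells, 75 of the 170 gene starts were E (44.1%, Wilson 95% interval 36.9 to 51.6%), 79 were M (46.5%, 39.1 to 54.0%) and 16 were L (9.41%, 5.88 to 14.7%). Primary B cells had 100 E starts (58.8%, 51.3 to 65.9%), 63 M starts (37.1%, 30.2 to 44.5%) and 7 L starts (4.12%, 2.01 to 8.25%). The MEF map had 72 E, 80 M and 18 L starts, closer to CH12 than to primary B cells. Over all protein-coding genes the MEF map was closer to primary B cells instead. The E shares there were 50.6% in CH12, 58.0% in primary B cells and 58.6% in the MEF map, and the L shares 22.1%, 12.9% and 11.9%.

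In CH12 cells the distribution differed from that of the other 3859 protein-coding genes on the same chromosomes in the M and L states. Of those, 28% were M in CH12 (26.6 to 29.5%) and 24.2% were L (22.9 to 25.6%), both outside the intervals of the Zfp genes. The E share of the others, 47.8%, lay inside the interval of the Zfp genes. In primary B cells the L share of the others was 15% (13.9 to 16.2%) and again lay outside that interval, while their E share was 54.7% and lay inside it. Their M share there was 30.2% (28.8 to 31.7%), which overlapped that of the Zfp genes. In the MEF map the E share of the Zfp genes, 42.4% (35.2 to 49.9%), was below the 56% of the others, their M share, 47.1% (39.7 to 54.5%), was above 29.3%, and the L share of the others, 14.7%, lay inside the interval of the Zfp genes (6.80 to 16.1%). The 201 Zfp genes on other chromosomes had M shares of 35.8% (CH12) and 28.9% (primary B) and L shares of 10.9% and 7.46%. All 4 intervals overlapped those of the 170 genes. In the MEF map the L intervals overlapped too (5.35 to 13.1% and 6.80 to 16.1%), but those of E and M did not. The Zfp genes on other chromosomes were E there in 58.7% (51.8 to 65.3%), above the share of the 170. They were M in 32.8% (26.7 to 39.6%), below it, though the M intervals nearly touched. A single MEF domain held 23 of the 170, so intervals counted over genes are too narrow for this contrast. Olfactory receptor genes, another large family arranged in tandem clusters, were mostly L on these chromosomes in CH12. Of their 303 starts, 71.9% were L in CH12 and 1.32% were E. In primary B cells 51.5% of them were M, 42.9% were L and 5.61% were E.

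**Figure D1:**
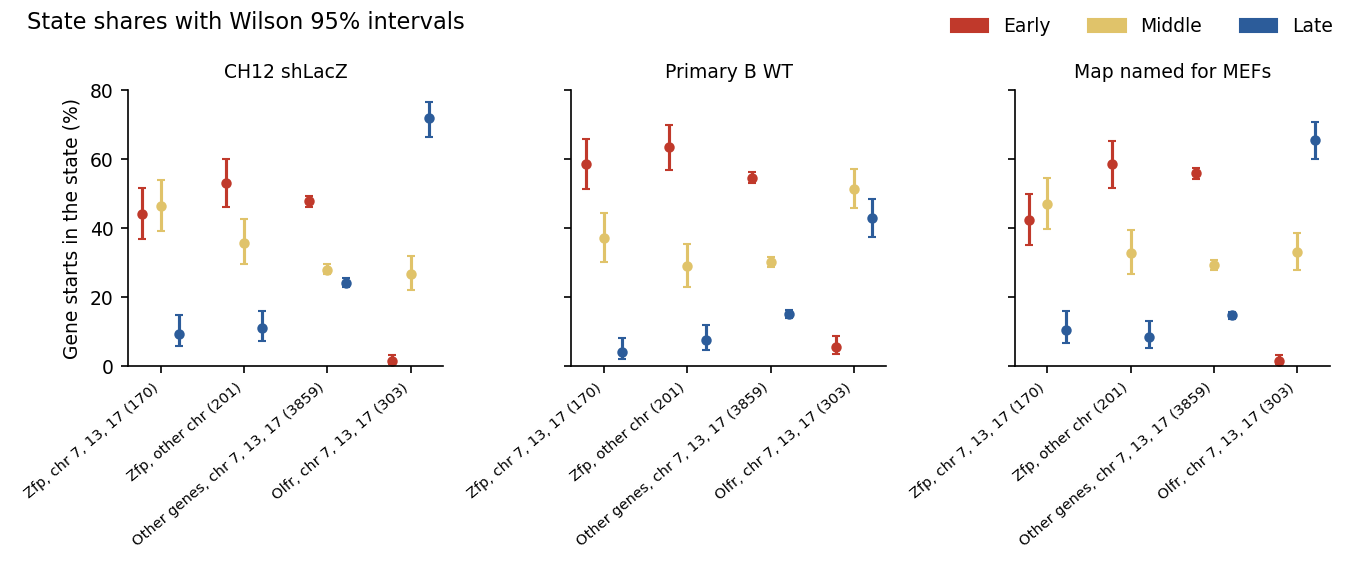
Share of gene starts (%, y axis) in the early, middle and late state for Zfp genes on chromosomes 7, 13 and 17, Zfp genes on other chromosomes, other protein-coding genes on the 3 chromosomes and olfactory receptor (Olfr) genes there, in each of the 3 maps. Points are shares and bars are Wilson 95% intervals; the late share of the Zfp genes was 9.41% in CH12 against 24.2% for the other genes.

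The higher M share was not seen in CH12 when domains were counted in place of genes. The 170 starts fell in 50 domains in CH12 cells, 50 in primary B cells and 44 in the MEF map. Of the 50 CH12 domains, 25 were M (50.0%, 36.6 to 63.4%), 19 were E (38.0%, 25.9 to 51.8%) and 6 were L (12%, 5.62 to 23.8%). Of the 316 CH12 domains on these chromosomes that held other protein-coding genes and no Zfp gene, 50.0% were M, 19.9% were E and 30.1% were L. Counted by domain in CH12, the M shares were equal, the E share was higher and the L share lower among domains with Zfp genes, beyond the counting intervals. In primary B cells 50.0% of the domains with Zfp genes were E (36.6 to 63.4%) against 25.9% of the other domains (21.3 to 31.1%), 40.0% were M against 51.1%, and the L intervals overlapped (4.35 to 21.4% and 18.6 to 28%). In the MEF map 47.7% were E against 28.7%, 34.1% were M against 53.0%, and the L shares were 18.2% and 18.3%. The sizes of the domains were not matched. A single M domain of CH12 on chromosome 13 held 23 of the 170 genes, while 23 domains held 1 gene each.

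The 3 chromosomes had different profiles. On chromosome 7, 57 of 87 genes were E in CH12 (65.5%, 55.1 to 74.7%), above the 46.4% of the other genes on that chromosome. On chromosome 13, 34 of 38 were M (89.5%, 75.9 to 95.8%), against 46.5% of the other genes there, and 1 was E, Zfp346, whose product binds double-stranded RNA. On chromosome 17, 17 of 45 were E (37.8%, 25.1 to 52.4%), 21 were M and 7 were L, against 66.0% E, 16.7% M and 17.3% L for the other genes. Thus in CH12 the E share was above that of the other genes on chromosome 7 and below it on chromosomes 13 and 17, each time by more than the counting interval. In primary B cells the chromosome 13 share was 36.8% (23.4 to 52.7%), and the 41.9% of the other genes lay inside that interval. Without chromosome 13, the M share in CH12 was 34.1% for Zfp genes and 23% for other genes.

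**Figure D2:**
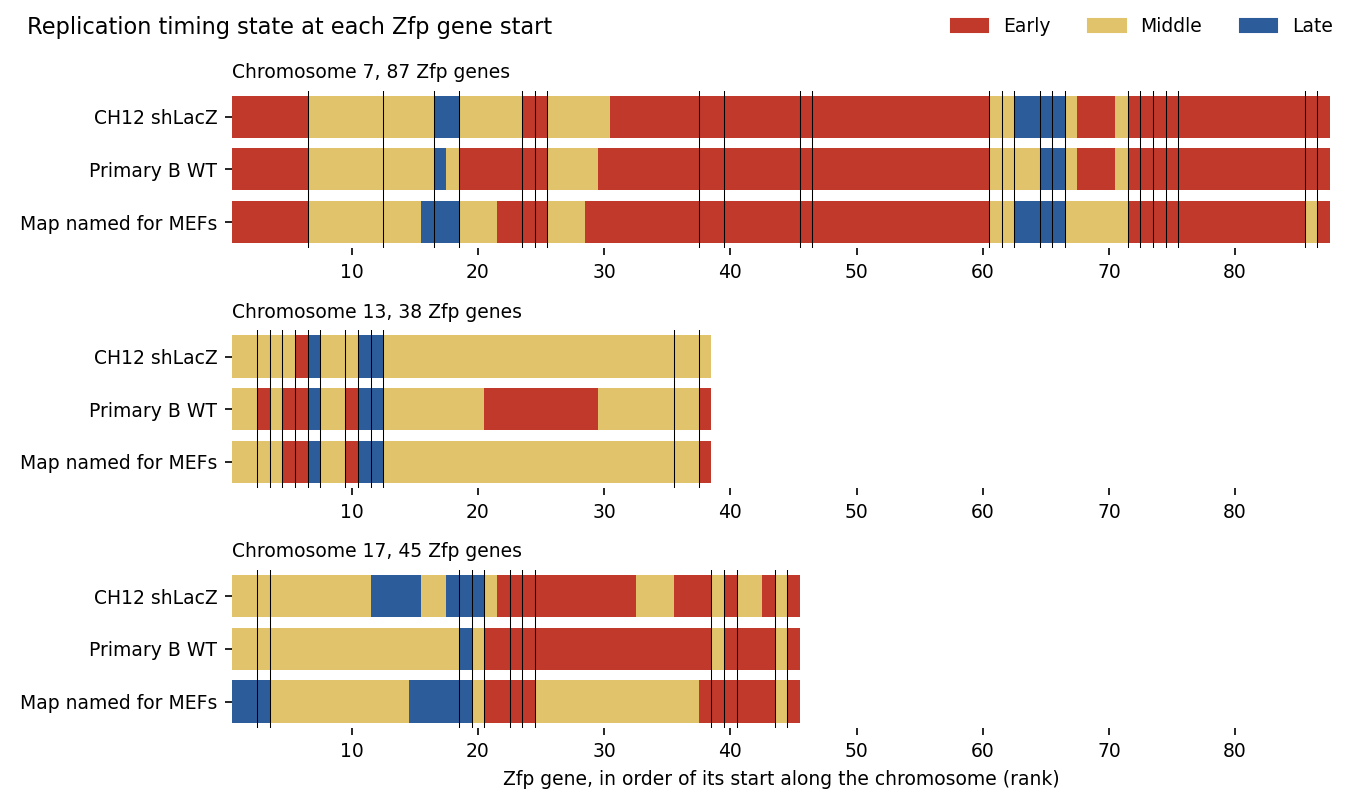
State of each of the 170 Zfp gene starts in the 3 maps, with genes in rank order of their start along chromosomes 7, 13 and 17 (x axis) and 1 row per map; vertical lines separate clusters, in which neighbouring starts lie at most 300 kb apart. The states run in blocks, and the primary B row differs from the CH12 row by blocks of earlier state.

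The genes were clustered. With neighbouring starts at most 300 kb apart, the smoothing span of the RT track, 139 genes formed 21 clusters of 2 or more and 31 stood alone. There were 11 clusters of 5 or more, with 116 genes. Of the 21 clusters of 2 or more, the number that lay in 1 domain was 15 in CH12, 17 in primary B cells and 16 in the MEF map. Clusters of 5 or more held 5 L genes of 116 in CH12 (4.31%, 1.85 to 9.69%) and none in primary B cells, where the interval ends at 3.21%. All 5 lay in 1 cluster, Zfp677 to Zfp946, so intervals counted over genes are too narrow here. Clusters of 2 to 4 held 4 L genes of 23 in CH12 (17.4%, 6.98 to 37.1%) and 1 in primary B cells. Genes that stood alone had 7 L genes of 31 in CH12 (22.6%, 11.4 to 39.8%) and 6 in primary B cells. In 11 of the 21 clusters every gene had the same states over the 3 maps. Of these, 5 were EEE, with 38 genes, and 4 were MMM, with 12 genes.

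Some chromosome 7 arrays were E throughout. Others were not: the 6 genes from Zfp787 to Zfp28 were MMM, and the 5 from Zfp329 to Zfp446 were M in CH12. The 14 genes from Zfp84 to Zfp146, which include Zfp568, spanned 401 kb and were EEE throughout. They lay in a CH12 domain of 4120 kb, chr7:27940001-32060000, together with the 6 genes from Zfp60 to Zfp850 and with Zfp36. In primary B cells a short M stretch between the E domains that end at 30360000 and start at 30460001 held no Zfp start. The 10 genes from Zfp553 to Zfp668 were also EEE. The 12 genes from Zfp180 to Zfp575 lay across an M to E border instead, which was placed at 25020000 in CH12, 24980000 in primary B cells and 24920000 in the MEF map. The states of Zfp114 and Zfp111, between these positions, differed between maps: Zfp180, Zfp112 and Zfp235 were MMM, Zfp114 was MME, Zfp111 was MEE, and the 7 genes from Zfp109 on were EEE.

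On chromosome 13, the 23 genes from Zfp712 to Zfp273 spanned 752 kb. In CH12 cells all of them lay in 1 M domain, chr13:67000001-68040000, with L domains on both sides, and the MEF map gave M for the same 23 genes, at chr13:67140001-68020000. Primary B cells had an E domain of 260 kb in the middle of the array, chr13:67440001-67700000, which held the starts of 9 genes: Zfp953, Zfp456, Zfp429, Zfp459, Zfp874a, Zfp874b, Zfp87, Zfp58 and Zfp748. The 8 starts before it and the 6 after it stayed M. This was the largest group of Zfp genes in 1 changed run.

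The first chromosome 17 array, 15 genes from Zfp677 to Zfp946 over 1040 kb, alternated in CH12 between M and L domains. The first 8 genes were MMM. The L domain chr17:21880001-22440000 of CH12 held Zfp820, Zfp942, Zfp943 and Zfp947, a 100 kb M domain held Zfp944 and Zfp758, and the next L domain held Zfp946. Primary B cells had a single M domain, chr17:20960001-22680000, over all 15. In the MEF map an M to L border at 22200000 put Zfp947, Zfp944, Zfp758 and Zfp946 in L.

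The second chromosome 17 array, 14 genes from Zfp871 to Zfp414 over 840 kb, was mostly E in both B cell maps and M in the MEF map. In primary B cells it lay inside 1 E domain, chr17:30660001-36540000. CH12 cells had E on both sides of an M domain of 220 kb, chr17:33260001-33480000, that held the starts of Zfp955a and Zfp955b. The MEF map had M for all genes but Zfp414. Of the 14 EEM genes in the whole set, 10 lay in this array, and Zfp715, Zfp658 and Zfp719 lay in a cluster of 5 on chromosome 7. Over both B cell maps, 75 Zfp genes were E in both, and 14 of them were M in the MEF map (18.7%, 11.5 to 28.9%), against 9.08% of the other genes on these chromosomes. Since 10 of the 14 share a domain, the interval is too narrow.

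**Figure D3:**
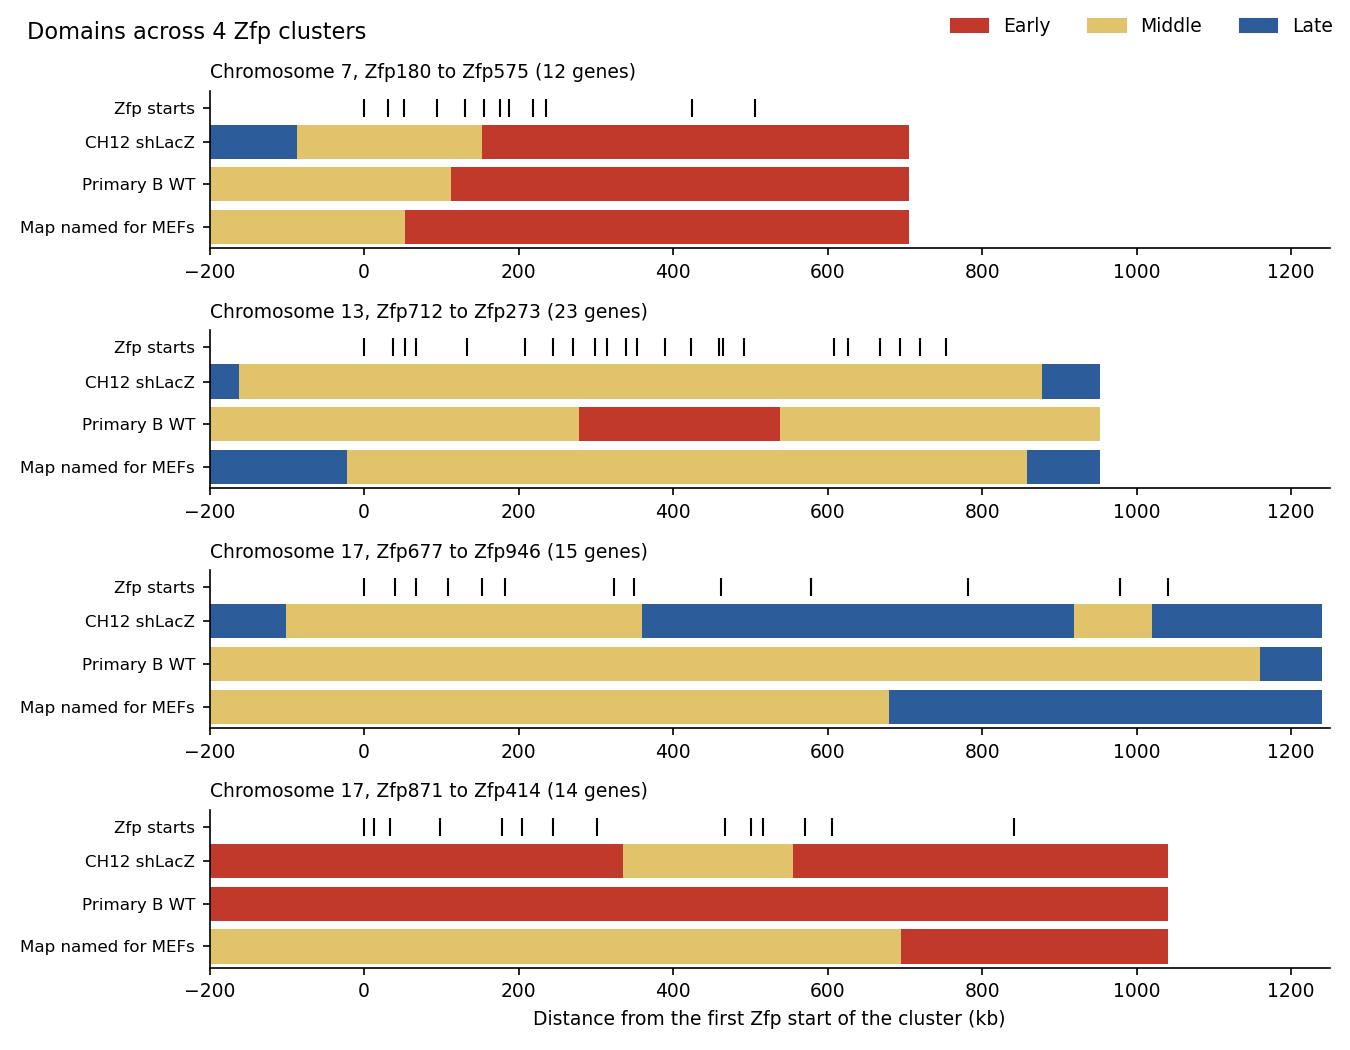
Domains of the 3 maps across 4 clusters, with distance from the first Zfp start of the cluster in kb on the x axis and ticks at each Zfp start. The primary B map has a 260 kb early block over 9 of the 23 starts on chromosome 13, 1 middle domain over the 15 starts of the first chromosome 17 array, and 1 early domain over the 14 starts of the second.

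Between CH12 and primary B cells, 136 of the 170 genes kept their state (interval 73.4 to 85.3%) and 34 had an earlier one in primary B cells (interval 14.7 to 26.6%). Over all 22350 protein-coding genes, 18.8% were earlier in primary B cells, so the share of Zfp genes was near the background. None of the 170 was in a later state, with an upper Wilson limit of 2.21%, where 2.75% of all protein-coding genes were. The 170 fell in 59 pairs of overlapping domains, so this limit is too low to set them apart from the background. Of the Zfp genes on other chromosomes, 7 of 201 were later (3.48%, 1.70 to 7.01%). A change in either direction was found for 21.5% of all protein-coding genes and for the same 34 Zfp genes. Of those 34, 25 went from M to E and 9 from L to M, and no gene was E in one B cell map and L in the other. Starting from M, 31.6% of Zfp genes (22.4 to 42.5%) and 30.0% of other genes on these chromosomes became E. Starting from L, 9 of 16 became M (56.2%, 33.2 to 76.9%), against 37.0% of the others, a value inside the interval. All 75 genes that were E in CH12 stayed E, where the lower limit was 95.1% and the share of the other genes was 95.7%.

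The 34 genes lay in 15 runs of changed bins. The runs were 40 to 560 kb long, with a median of 160 kb, and 12 of them, with 24 genes, were shorter than the 300 kb smoothing span. Chromosome 13 held 13 of the genes (34.2% of its 38, 21.2 to 50.1%) and 27.7% of the others on that chromosome were earlier. Chromosome 17 held 12 (26.7% of 45, 16 to 41%, against 10.2% of the others, which is below the interval), and chromosome 7 held 9 (10.3% of 87, 5.54 to 18.5%, against 18.1%). On chromosome 17, 37.8% of the Zfp genes and 66.0% of the others were E in CH12 and could not become earlier. Starting from M there, 28.6% of Zfp genes (13.8 to 50.0%) and 24.0% of the others became E. Starting from L, 6 of 7 became M, against 35.4% of the others. Genes in 1 run changed together, so these intervals are too narrow. Of the 34, 24 had a domain edge within 100 kb in at least 1 of the B cell maps. Away from edges, over 100 kb in both maps, 10 of 99 Zfp genes were earlier in primary B cells (10.1%, 5.58 to 17.6%), against 10.9% of all protein-coding genes.

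Besides the arrays above, a run of 380 kb on chromosome 7, chr7:13360001-13740000, went from M to E and held Zfp329, Zfp110, Zfp128, Zfp324 and Zfp446. Zfp110 encodes a protein that binds the neurotrophin receptor p75, and it was MEM, 200 kb from the nearest edge in CH12 and 60 kb in primary B cells. The same run held the start of Trim28, the corepressor that KRAB domains recruit, which was M in CH12 and E in the other maps. Single genes that went from M to E were Zfp111 on chromosome 7, Zfp184, Zfp169, Zfp367 and Zfp366 on chromosome 13 and Zfp213 on chromosome 17, and the pair Zfp119a and Zfp959 on chromosome 17 did so too. Zfp366, known from dendritic cells and the last gene on chromosome 13, lay 54 kb from the edge of its CH12 domain and 25 kb from that of its primary B domain. Zfp606, Zfp939, Zfp619, Zfp946 and Zfp40 went from L to M.

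The 7 LLL genes were Zfp551, Zfp788 and Zfp141 on chromosome 7, Zfp808, Zfp369 and Zfp640 on chromosome 13 and Zfp945 on chromosome 17. Zfp369, which like Zfp110 encodes a partner of the neurotrophin receptor, started 840 kb inside its CH12 domain and 20 kb inside its primary B domain, chr13:65360001-66920000. In total 61 genes were EEE and 46 were MMM. MMM genes made up 27.1% of the Zfp set and 10.8% of all protein-coding genes, and 14 of the 46 came from the chromosome 13 array. EEE genes made up 35.9% and 43.9%. The other genes were 16 MEM, 14 EEM, 9 MEE, 6 MML, 5 LML, 4 LMM and 2 MME, the last being Zfp114 and Zfp57. The MML genes, M in both B cell maps and L in the MEF map, were Zfp772 on chromosome 7 and Zfp960, Zfp97, Zfp160, Zfp944 and Zfp758 on chromosome 17. MEM, the state of the genes that were E in primary B cells and M elsewhere, made up 9.41% of the set and 3.4% of all protein-coding genes, and 9 of the 16 share the chromosome 13 run. The same state in all 3 maps was found for 114 of the 170 (67.1%, 59.7 to 73.7%) and for 63.8% of the other genes on these chromosomes.

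Several genes of known function were EEE. Zfp36 encodes tristetraprolin, which binds AU-rich mRNA through CCCH fingers, and it lay 1224 kb inside its CH12 domain and 1195 kb inside its primary B domain. Its relative Zfp36l2, the last gene on chromosome 17, lay 452 and 372 kb inside. Zfp318 lay 1340 and 1160 kb inside domains of 3400 and 3320 kb. Zfp143, an activator bound at many promoters, lay 245 kb from an edge in CH12 and 525 kb in primary B cells. Zfp568 lay 1291 and 308 kb from an edge. Zfp57, which keeps imprinted regions methylated in the embryo, was MME, in an M domain of 400 kb in CH12 (chr17:36880001-37280000), an M domain of 960 kb in primary B cells and an E domain of 240 kb in the MEF map.

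The first genes were Zfp628 on chromosome 7 (EEE, 193 kb from the CH12 edge), Zfp187 on chromosome 13 (MMM, 674 kb) and Zfp960 on chromosome 17 (MML, 121 kb). The last gene on chromosome 7, Zfp941, was EEE and 88 kb from an edge in both B cell maps. In the B cell maps, the starts nearest to an edge were Zfp109 at 2.13 kb, Zfp819 at 2.54 kb and Zfp28 at 3.92 kb. For Zfp109 and Zfp28 this edge was one of CH12, and for Zfp819 it was in the same place in both B cell maps. In these maps their state rests on the placement of 1 bin. Among the farthest were Zfp101 at 2872 kb and Zfp81 at 2836 kb, both in the E domain of primary B cells on chromosome 17. In CH12 these genes were 51 and 15 kb from an edge. The median distance to the nearest CH12 edge was 219 kb for Zfp genes and 292 kb for the other genes on these chromosomes.

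Finger number was counted in the longest coding sequence of each gene, with a finger read as C, 2 or 4 residues, C, 12 residues, H, 3 to 5 residues and H. The 170 proteins had a median of 11 fingers and a range of 0 to 33. The CH12 medians were 11 for E, 11 for M and 11.5 for L genes, and those of primary B cells were 10, 12 and 13, and those of the MEF map were 9.5, 11.5 and 12.5. The number of linkers of the kind that joins such fingers had CH12 medians of 4, 6 and 7. Zfp619 had the most fingers, 33, and was LML in a CH12 domain of 4020 kb. Zfp646, with 27, was EEE. The 3 proteins with 0 fingers of this pattern were Zfp36 and Zfp36l2, whose fingers are of the CCCH kind, and Zfp850, whose annotated protein has 140 residues. All 3 were EEE.

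Genes with and without a KRAB pattern had different E shares over the whole set. A KRAB pattern, at least 11 of 16 conserved positions of the KRAB A box, was found in 117 proteins and missed in 53. The count of matches was split into a low and a high group: of 625 genes with 3 or more fingers in the genome, 327 had 1 to 6 matches, 280 had 12 to 16 and 18 had 7 to 11. Genes with the pattern were E in CH12 in 40 of 117 cases (34.2%, 26.2 to 43.2%), and genes without it in 35 of 53 (66.0%, 52.6 to 77.3%). In primary B cells the E shares were 50.4% (41.5 to 59.3%) and 77.4% (64.5 to 86.5%), and in the MEF map 29.1% (21.6 to 37.8%) and 71.7% (58.4 to 82.0%). The intervals did not overlap in any of the 3 maps, although genes that share a domain are not independent. Within chromosome 7, where both kinds are numerous, 28 of 50 genes with the pattern and 29 of 37 without it were E in CH12 (56.0%, 42.3 to 68.8%, and 78.4%, 62.8 to 88.6%), and these intervals overlapped.

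Most L genes of the set had the pattern: 15 of 16 in CH12, 7 of 7 in primary B cells and 17 of 18 in the MEF map. The exception in CH12 was Zfp939, LML. EEE genes carried the pattern in 27 of 61 cases, MMM genes in 35 of 46 and EEM genes in 13 of 14. Zfp genes on other chromosomes did not show this: 9.59% of those with the pattern (4.72 to 18.5%) and 11.7% of those without it (7.23 to 18.4%) were L in CH12. Of these genes, 47.9% of 73 with the pattern were E in CH12 (36.9 to 59.2%) and 56.2% of 128 without it (47.6 to 64.5%), with overlapping intervals. Genes on the 3 chromosomes with other names, 5 or more fingers and the KRAB pattern numbered 21, and 12 of them were L in CH12 (57.1%, 36.5 to 75.5%), above the 12.8% of the Zfp genes with the pattern (7.93 to 20.1%). The share that was earlier in primary B cells was 23.1% with the pattern (16.4 to 31.5%) and 13.2% without it (6.55 to 24.8%). The pattern was defined with the states already known, and genes that share a domain often share it: it was found at 22 of the 23 genes of the chromosome 13 array, at 15 of 15 and 12 of 14 of the chromosome 17 arrays and at 10 of 14 of the EEE array from Zfp84 to Zfp146.

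**Figure D4:**
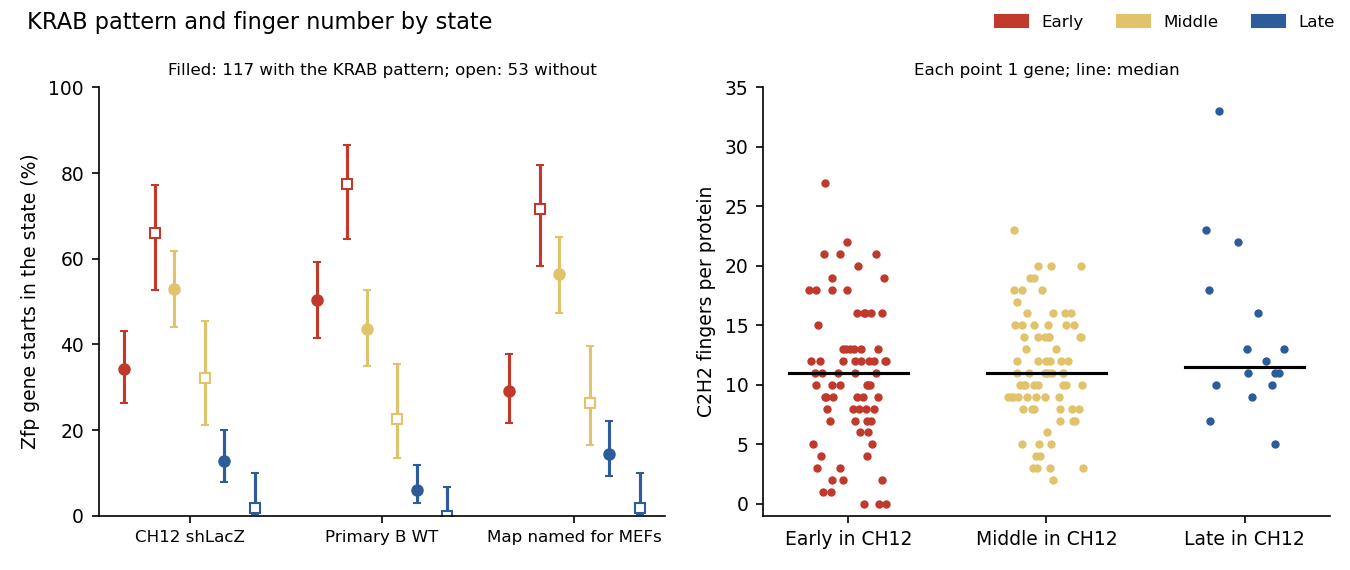
Left, share of Zfp gene starts (%) in each state for the 117 genes with the KRAB pattern (filled) and the 53 without it (open) in the 3 maps, with Wilson 95% intervals. Right, C2H2 fingers per protein (y axis) by CH12 state, 1 point per gene with the median as a line; the medians are 11, 11 and 11.5.

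The sequence at the gene starts was read from NCBIM37, from 250 bases before to 50 bases after each start. CpG dinucleotides numbered 0 to 47, with a median of 11, the same median as over all 22350 protein-coding genes. EEE genes had a median of 15 CpGs, MMM genes 9 and LLL genes 9. Over all protein-coding genes the CH12 medians were 16 in E, 11 in M and 3 in L, so L genes of the Zfp set, with a CH12 median of 10, had more CpGs than L genes at large. The genes with the KRAB pattern had a median of 10 and those without it 18. The 250 bases before the start are shown for the gene with the most CpGs in its window, Zfp318 with 47, for Zfp568, and for Zfp788, which with 11 was at the median, with CpGs in capitals: Zfp318 (EEE, chr17:46520430-46520679, + strand, 36 CpGs), Zfp568 (EEE, chr7:30768724-30768973, + strand, 24 CpGs) and Zfp788 (LLL, chr7:48888323-48888572, + strand, 10 CpGs). None of the 3 overlaps an annotated exon.
Zfp318: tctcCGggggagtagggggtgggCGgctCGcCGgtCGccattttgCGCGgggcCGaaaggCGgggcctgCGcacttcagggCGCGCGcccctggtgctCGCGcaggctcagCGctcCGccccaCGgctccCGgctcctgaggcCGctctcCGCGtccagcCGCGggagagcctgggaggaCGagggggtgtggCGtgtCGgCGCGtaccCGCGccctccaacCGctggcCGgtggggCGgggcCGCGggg
Zfp568: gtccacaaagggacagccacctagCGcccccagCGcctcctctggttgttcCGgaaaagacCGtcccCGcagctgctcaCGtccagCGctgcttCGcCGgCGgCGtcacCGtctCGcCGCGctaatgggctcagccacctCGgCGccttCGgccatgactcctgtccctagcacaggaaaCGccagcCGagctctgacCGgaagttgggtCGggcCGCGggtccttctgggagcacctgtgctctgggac
Zfp788: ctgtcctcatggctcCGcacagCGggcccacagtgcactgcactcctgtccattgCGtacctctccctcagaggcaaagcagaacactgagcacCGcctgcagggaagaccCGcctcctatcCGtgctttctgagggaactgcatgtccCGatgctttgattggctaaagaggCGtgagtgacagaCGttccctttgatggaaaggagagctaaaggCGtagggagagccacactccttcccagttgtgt
CpGs are spread over the whole Zfp318 window. CpG number did not follow the state gene by gene: Zfp108 and Zfp59, both EEE, had 0.

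Many genes of the chromosome 13 array had letters in common. The letters ACTACA followed, after any 2 bases, by TCC, read on both strands in the window from 250 before to 50 after the start, were found at 17 of its 23 genes, at 18 of 38 Zfp genes on chromosome 13 (47.4%), at 19 of 87 on chromosome 7 (21.8%) and at 0 of 45 on chromosome 17. Over all protein-coding genes, 2.57% of windows held them, and 7.96% of those of Zfp genes on other chromosomes. The letters are part of an element known to be bound by the protein of Zfp143. Inside the array they were found at 7 of the 9 genes that were E in primary B cells and at 10 of the 14 that stayed M. They were found at 26.5% of the 34 genes that were earlier in primary B cells and at 20.6% of the 136 others, with overlapping intervals (14.6 to 43.1% and 14.6 to 28.1%). The 250 bases before the start are shown for a gene of each kind, with the whole match in capitals: Zfp455 (MMM, chr13:67295192-67295441, + strand), Zfp874b (MEM, chr13:67585190-67585439, - strand) and, outside the array, Zfp606 (LML, chr7:13063392-13063641, + strand).
Zfp455: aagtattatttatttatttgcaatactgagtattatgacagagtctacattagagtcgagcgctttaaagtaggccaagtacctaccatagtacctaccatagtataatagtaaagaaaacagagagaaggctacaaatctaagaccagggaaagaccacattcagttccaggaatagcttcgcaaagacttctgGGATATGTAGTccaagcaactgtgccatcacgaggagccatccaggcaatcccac
Zfp874b: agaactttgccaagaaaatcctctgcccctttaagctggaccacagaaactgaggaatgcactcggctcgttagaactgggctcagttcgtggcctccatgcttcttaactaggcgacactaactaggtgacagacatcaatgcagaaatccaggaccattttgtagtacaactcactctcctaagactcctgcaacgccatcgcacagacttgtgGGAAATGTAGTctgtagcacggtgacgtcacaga
Zfp606: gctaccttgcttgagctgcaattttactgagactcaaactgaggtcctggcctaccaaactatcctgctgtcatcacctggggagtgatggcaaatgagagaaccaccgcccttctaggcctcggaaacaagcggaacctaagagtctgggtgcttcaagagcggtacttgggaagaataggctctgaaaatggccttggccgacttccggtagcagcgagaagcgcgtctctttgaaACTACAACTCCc
In Zfp455 and Zfp874b the match lies on the strand opposite to the gene, and in Zfp606 on that of the gene. Both genes of the array had it, and their states in primary B cells differed.

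In the first chromosome 17 array, 2 pairs of genes start back to back. Zfp942 and Zfp943 lie in opposite directions with starts 88 bases apart and were LMM. Zfp944 and Zfp758 have starts 53 bases apart and were MML. The bases between the starts are shown on the + strand, chr17:22099432-22099518 and chr17:22498368-22498419, with the letters CACGTG in capitals.
Zfp942 to Zfp943: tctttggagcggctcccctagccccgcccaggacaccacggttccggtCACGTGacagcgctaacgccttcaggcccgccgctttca
Zfp944 to Zfp758: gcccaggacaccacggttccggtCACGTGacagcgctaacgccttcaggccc
The 52 bases of the second stretch occur without a difference inside the first, at chr17:22099457-22099508, and nowhere else in the genome on either strand. Identical sequence at the starts thus lay in an L domain in CH12 at one pair and in an M domain at the other, and in the MEF map in M and in L. CACGTG was found at 6 of the 15 genes of this array, at 8.82% of the 170 genes and at 7.79% of all protein-coding genes. In the array it was found at 4 of the 5 genes that were earlier in primary B cells and at 2 of the 10 others, and the genes of a pair share the match. Over the 170, it was found at 5 of 16 L genes of CH12 (31.2%, 14.2 to 55.6%) and 3 of 75 E genes (1.37 to 11.1%), and at 17.6% of genes that were earlier in primary B cells (8.35 to 33.5%) and 6.62% of the others (3.52 to 12.1%). Of these 5 L genes all but Zfp619 lay in this array, and all 5 were among the earlier genes. The shares over the 170 thus largely repeat those of the array and show no link beyond it. Both motifs were chosen after the sequences had been seen. Another pair, Zfp646 and Zfp668 on chromosome 7, has starts 32 bases apart, overlaps, and was EEE.

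Recent copies limit what reads can show. Reads of 50 bases were kept only where they aligned to 1 place. The share of 50-base stretches that occur once in the genome was computed for each 20 kb bin that holds a start. The median was 94.4% over the 170 genes and 95.7% over the other genes on these chromosomes, and 123 of the 170 had 90% or more. It was 96.2% for E, 94.0% for M and 88.1% for L genes in CH12. In 9 genes it was under 50%: Zfp97 at 4.58%, Zfp955a at 7.08%, Zfp955b at 8.81%, Zfp640 at 16.5%, Zfp960 at 16.6%, Zfp772 at 28.2%, Zfp934 at 43.9%, Zfp808 at 45.3% and Zfp935 at 48.3%. None of the 9 was E in CH12, and 2 of them, Zfp955a and Zfp955b, were among the 34 that were earlier in primary B cells. The part of uniqueness in the states of these genes was not tested. Without the 9, the shares of E, M and L in CH12 were 46.6%, 44.7% and 8.70%, and 19.9% were earlier in primary B cells. In coding sequence, Zfp960 shared 81% of its 50-base stretches with Zfp97, Zfp955b shared 57.7% with Zfp955a and Zfp934 shared 53.4% with Zfp808, and 96 of the 170 shared none with another gene of the set.

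**Figure D5:**
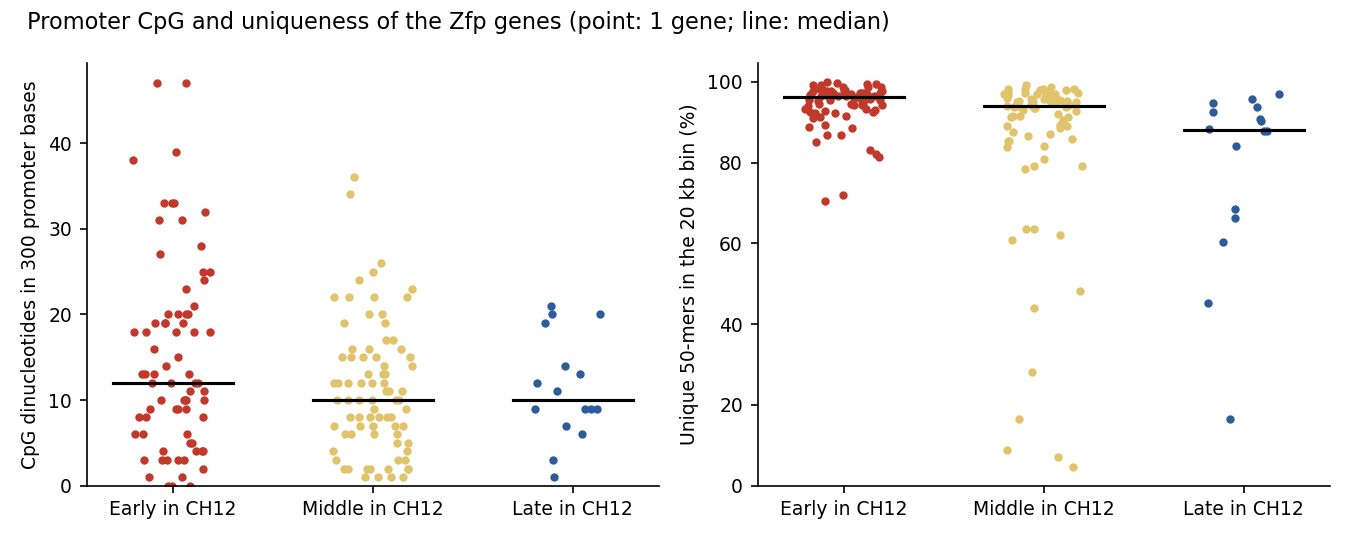
Left, CpG dinucleotides from 250 bases before to 50 after each Zfp start, and right, share (%) of 50-base stretches of its 20 kb bin that occur once in the genome, by CH12 state; points are genes and lines are medians. The medians are 12, 10 and 10 CpGs and 96.2%, 94.0% and 88.1% unique.

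The genes whose products work with KRAB zinc finger proteins were mostly E. Of 19 such genes across the genome, 14 were E in CH12, 4 were M and 1 was L. The counts in primary B cells were 16 E and 3 M. Over all protein-coding genes, 50.6% were E in CH12 and 58.0% in primary B cells. Setdb1, Atf7ip, Atrx, Daxx, Uhrf1, Hdac1, Chd4, the HP1 genes Cbx1, Cbx3 and Cbx5 and the DNA methyltransferase genes Dnmt1, Dnmt3a and Dnmt3b were E in both B cell maps. Of the 19, 14 had the same state in both. Trim28, Mphosph8 and Fam208a (annotated as D14Abb1e), of which the last 2 encode subunits of the HUSH silencing complex, went from M to E. Pphln1, which encodes the other HUSH subunit, was M in both. Smarcad1, a remodeller that binds TRIM28, went from L to M, and Morc2a, a HUSH-associated ATPase, went the other way, from E to M. With 19 genes, the 4 that were earlier and the 1 that was later stand beside backgrounds of 18.8% and 2.75%.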

How the data were processed

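Per the labels and the study's methods, 50 bp single-end reads were trimmed with Trim Galore 0.6.5, aligned to mm9 with BWA 0.7.17 and filtered for unique alignments (SAMtools 1.9). Replicates were merged, duplicates removed, and the log2 early over late ratio per 20 kb window (deepTools) was smoothed over 300 kb and segmented into 3 states. The deposited maps hold domain limits and a state number, not RT values. Number 2 is E, 1 is M and 0 is L in both B cell maps, and 0, 2 and 1 in the MEF map. Smoothing blurs edges, and state limits may differ between maps.

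Genes of the GENCODE M1 annotation (NCBIM37, whose 20 chromosome lengths matched the CH12 map) took the state covering their start. Shares have Wilson 95% intervals. Proteins were translated from the longest coding sequence of each gene in place of the planned RefSeq proteins, not used here. The genes named in full were the first and last on each chromosome, the 3 nearest to and farthest from an edge, those with most and fewest fingers, and a short list; sequences, motifs and the KRAB pattern were chosen later, with the states known. A result that this rule would name is not reported here. The genes, lists and alternatives were chosen with earlier results of these data known. Functions were tested on simulated data, with 8 of 8 checks recovered. The tools were pandas 2.3.3, numpy 2.4.6, matplotlib 3.10.9, numba 0.67.0 and Python 3.11.15.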

Additional observations from a re-analysis of the deposited data

How the results depend on the processing

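No gene lay in a domain under 100 kb, so leaving such domains out changed nothing and is not counted. Of 125 values under the other alternatives, 100 stayed inside the main 95% interval or, for a count or median, within 1.5 times. Settings that keep nearly the same genes, such as digits only (158) and all biotypes (172), could hardly move a share. Linkers are a different quantity from fingers, so their 9 moved medians are not a check of the finger count. None moved with digits only after Zfp, gene midpoints or ends, or all biotypes, nor without chromosome 17. The same held without the 9 genes in bins of low uniqueness (chosen after seeing the data), for pairs of domains and for other cluster gaps (29 and 19 clusters). Zinc finger genes under other names were not added to the set in any setting. On these chromosomes 41 had 5 or more fingers, and 36.6% were L in CH12 and 31.7% in primary B cells. Among Zfp genes with 5 or more fingers these shares were 10.6% and 4.64%, so the L share may depend on the naming rule. Leaving out chromosome 7 gave CH12 shares of 21.7% E and 66.3% M, primary B shares of 44.6% E and 50.6% M, MEF shares of 18.1% E and 68.7% M, 69.9% with the same state and 30.1% earlier. Leaving out chromosome 13 gave CH12 shares of 56.1% E and 34.1% M and MEF shares of 51.5% E and 37.1% M. Leaving out genes within 100 kb of an edge gave 89.9% with the same state and 10.1% earlier. Joining M with E gave 94.7% and 5.29%. Linkers in place of fingers gave E, M and L medians of 4, 6 and 7 for CH12, of 4, 7 and 6 for primary B cells and of 4, 6 and 7.5 for the MEF map. No paired analysis was possible because each map pools its replicates. Read depth is unknown from the maps.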
